A study of Mus musculus with 20 samples.

Results

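The Ifit and Ifitm families, with the related genes Ifi27 and Ifi27l2a, were followed in microglia and astrocytes after traumatic brain injury. The 9 genes were chosen by symbol (Ifit1, Ifit2, Ifit3, Ifit3b, Ifitm1, Ifitm2, Ifitm3, Ifi27 and Ifi27l2a) from the 39017 identifiers of the deposited count table. All 9 were found, Ifit3b under its older symbol I830012O16Rik. Adult male C57BL/6 mice underwent craniectomy and then lateral fluid percussion injury (FPI), in which a pulse of fluid strikes the exposed dura, or sham surgery without the pulse. The ipsilateral forebrain was taken 7 days later, and microglia (CD11b+, CD45 intermediate) and astrocytes (ACSA-2+) were sorted by flow cytometry. Total RNA was sequenced, without pooling of animals, from 5 libraries each of sham microglia, FPI microglia, sham astrocytes and FPI astrocytes, 20 in all. Sham animals also carried the craniectomy, so each comparison is of the fluid pulse on top of that surgery.

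Interferons signal through JAK kinases to a complex with STAT2 and IRF9 that binds interferon-stimulated response elements near target genes. IFIT proteins are cytosolic and bind viral RNA or the translation machinery, with IFIT1 recognizing RNA that lacks the host cap methylation. IFITM proteins sit in the plasma and endosomal membranes and hinder the fusion of enveloped viruses, while Ifi27 and Ifi27l2a encode small hydrophobic proteins that are strongly induced by interferon.

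The 4 Ifit genes form a cluster on chromosome 19 (GRCm38, GENCODE M21). Ifit2 lies at chr19:34550694-34576419, Ifit3 at chr19:34583531-34588731, Ifit3b at chr19:34607970-34613401 and Ifit1 at chr19:34640871-34650009, all on the plus strand. On chromosome 7, Ifitm2 lies at chr7:140954837-140955987 and Ifitm3 at chr7:141009586-141010770 on the minus strand, on either side of Ifitm1 at chr7:140967221-140969825 on the plus strand. Ifi27 (chr12:103434211-103440239, plus strand) and Ifi27l2a (chr12:103442167-103443680, minus strand) are neighbours on chromosome 12. No other gene of the count table overlapped any of the 9.

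The promoters were searched for the core of the interferon-stimulated response element, GAAANNGAAA, on both strands, where matches may overlap. RefSeq windows (GRCm38.p6) of 300 bases, 250 before and 50 after the start, were available for 7 of the 9 genes and not for Ifi27 or Ifi27l2a. Of all 32851 windows, 3.44% held at least 1 match and 0.225% held at least 2. Ifit1, Ifit3, Ifit3b and Ifitm3 held 2 matches each, Ifitm2 held 1, and neither window of Ifit2 nor that of Ifitm1 held these letters. The stretches with matches are shown 5′ to 3′ in the direction of the gene, with the matches in capitals. Of the genes with matches, Ifit1, Ifit3, Ifit3b and Ifitm3 were higher in FPI than in sham microglia, as given below. Ifitm2, with a match, was not called there, whereas Ifit2, without a match, was called higher. In the Ifit genes the matches read as the reverse complement, TTTCNNTTTC.
Ifit1 (chr19:34640784-34640813, plus strand): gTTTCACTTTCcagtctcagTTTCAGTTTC
Ifit3 (chr19:34583368-34583421, plus strand): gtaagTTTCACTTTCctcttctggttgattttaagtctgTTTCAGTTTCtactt
Ifit3b (chr19:34607764-34607817, plus strand): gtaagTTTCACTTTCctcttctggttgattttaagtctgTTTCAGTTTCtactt
Ifitm2 (chr7:140955979-140956008, minus strand): gGAAAAGGAAAttgctagagaaagggcggg
Ifitm3 (chr7:141010714-141010743, minus strand): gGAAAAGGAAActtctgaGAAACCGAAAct

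The Ifit3 and Ifit3b stretches were the same letter for letter, inside an identical run of 169 bases. In Ifit1 the matches began 104 and 85 bases before the start, in Ifit3 156 and 122 bases before it, and in Ifit3b 188 and 154 bases before it. The Ifitm2 match began 46 bases before the start, whereas both Ifitm3 matches lay just after it. A match describes letters and does not show that a factor is bound, and its absence says only that these letters are not in the window.

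Levels are in CPM, counts scaled to the size of the library, on a TMM scale shared by the 20 libraries. The effect of FPI was tested in each cell type separately (edgeR, quasi-likelihood), and a gene was called at a Benjamini-Hochberg adjusted p below 0.1 over all tested genes with an absolute log2 fold change above 0.6. Library totals lay between 5623349 and 13110857 counts, so that 3 counts, taken as the floor, correspond to 0.220 to 0.568 CPM. All 6 microglial markers and all 6 astrocyte markers were detected in their own cells, and summed microglial markers in astrocytes reached 0.185% (sham) and 0.447% (FPI) of their level in microglia. Summed astrocyte markers in microglia reached 1.54% (sham) and 2.29% (FPI) of their level in astrocytes. By its library name, FPI astrocyte replicate 5 would be microglia from the same animal as FPI astrocyte replicate 2, and its title was followed instead. Its summed microglial markers stood at 134 CPM, the highest of the astrocyte libraries, against at least 15469 CPM in every microglia library.

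In microglia, FPI raised 6 of the 9 genes by 5.18-fold to 8.90-fold: all 4 Ifit genes, Ifitm3 and Ifi27l2a. Ifitm2 and Ifi27 were not called, and Ifitm1 had no read in any of the 10 microglia libraries. Of the 8 genes that passed the filter on low counts, 6 were called higher and 0 lower, beside 259 higher (2.13%) and 26 lower (0.214%) of all 12143 tested genes. In each of the 6, every FPI library stood above every sham library, which was so for 263 (2.17%) of all tested genes. The median log2 fold change was 2.55 over the 8 genes and -0.0094 over all tested genes. In bulk RNA, more cells of a type and more RNA per cell cannot be told apart.

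Ifit1, the sensor of RNA without host cap methylation, stood at 2.87, 1.68, 2.80, 3.86 and 2.08 CPM in sham microglia replicates 1 to 5 and at 16.9, 19.5, 7.47, 13.09 and 24.8 CPM in FPI microglia. FPI replicate 3 was the lowest of its group and still stood above the highest sham library, replicate 4. The log2 fold change was 2.64 (SE 0.37, edgeR adjusted p = 3.05e-04).

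Ifit2, whose product is also linked to cell death, stood at 12.4, 9.74, 24.0, 20.8 and 17.0 CPM in sham microglia and at 139.6, 91.7, 61.8, 59.9 and 155 CPM in FPI microglia. FPI replicates 1 and 5 were well above the other three, and no FPI library came near the sham range. The log2 fold change was 2.63 (SE 0.29, edgeR adjusted p = 3.7e-05).

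Ifit3 stood at 15.2, 6.81, 8.85, 16.6 and 14.2 CPM in sham microglia and at 82.4, 73.4, 31.4, 52.2 and 92.1 CPM in FPI microglia, a log2 fold change of 2.46 (SE 0.29, edgeR adjusted p = 6e-05). Its close copy Ifit3b stood at 3.00, 1.39, 3.81, 1.70 and 1.33 CPM in sham microglia and at 17.3, 17.0, 6.75, 13.2 and 27.9 CPM in FPI microglia, a log2 fold change of 2.88 (SE 0.42, edgeR adjusted p = 4.70e-04). In both genes, FPI replicate 3 was lowest and replicate 5 highest, and the groups did not overlap.

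**Figure D1:**
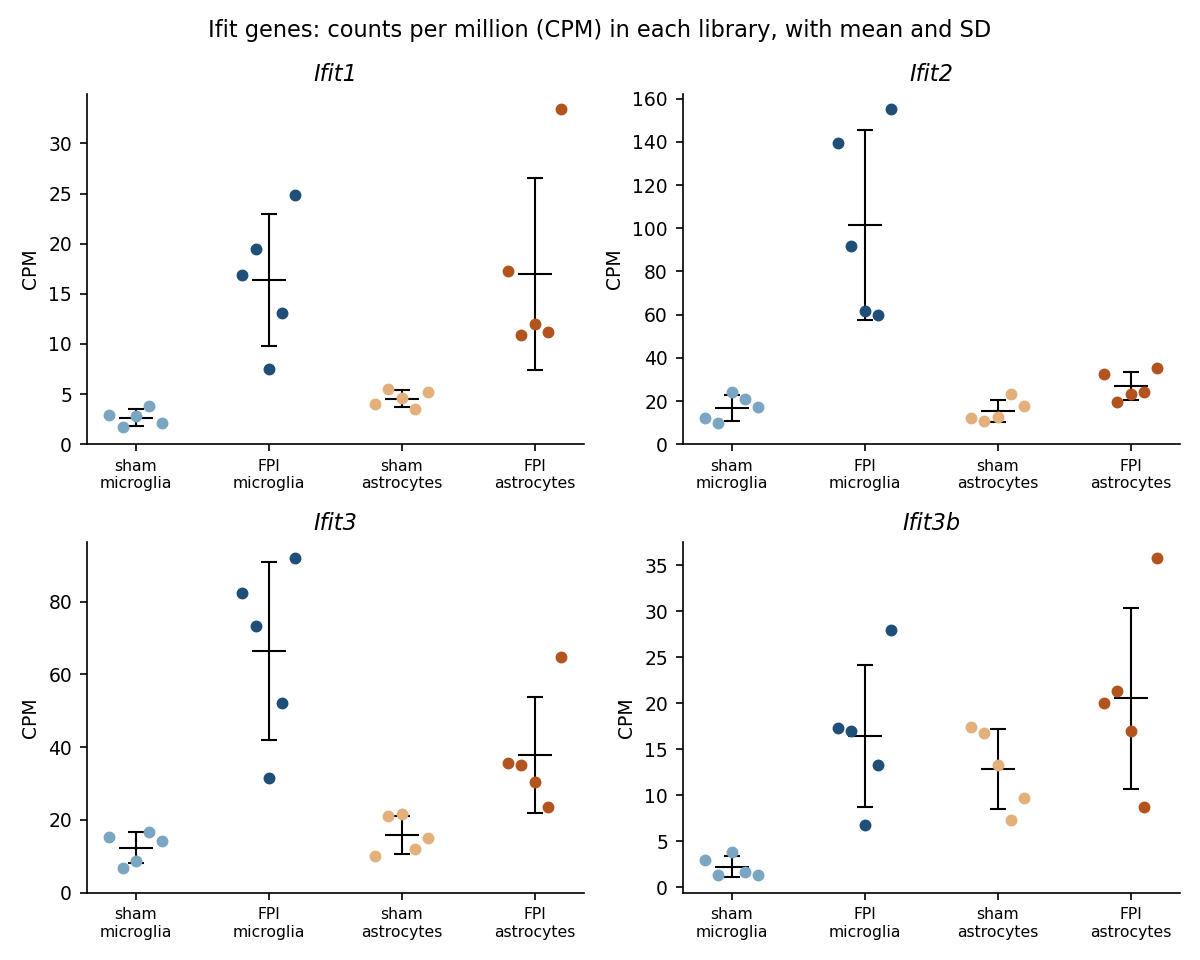
Level in CPM (vertical axis, linear) of Ifit1, Ifit2, Ifit3 and Ifit3b in each of the 20 libraries by group; points are libraries in replicate order, and the black bars give mean and SD of 5 libraries. All FPI microglia lie above all sham microglia in each panel, from 59.9 CPM upward against at most 24.0 CPM for Ifit2.

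Among the membrane proteins, Ifitm3 was the one that rose in microglia. Its levels were 4.75, 4.83, 8.18, 7.60 and 1.14 CPM in sham microglia and 36.3, 32.6, 11.7, 15.9 and 40.6 CPM in FPI microglia, with no overlap. The log2 fold change was 2.37 (SE 0.40, edgeR adjusted p = 0.002005). Ifitm2, its close relative, stood at 1.37 to 5.49 CPM in sham microglia and at 1.23 to 6.86 CPM in FPI microglia, and the groups overlapped throughout. Its log2 fold change of -0.09 had a 95% confidence interval from -1.33 to 1.14 (edgeR adjusted p = 0.982), wide enough to hold a rise or a fall.

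Ifi27l2a had the largest fold change of the 8 genes tested in microglia. It stood at 2.37, 0.952, 5.04, 4.09 and 6.25 CPM in sham microglia and at 17.3, 29.3, 18.3, 30.3 and 63.5 CPM in FPI microglia, a log2 fold change of 3.15 (SE 0.44, edgeR adjusted p = 3.05e-04). FPI replicate 5 stood far above the other libraries, and without it the log2 fold change was 2.70 and still called. In 1 fit of all 20 libraries the adjusted p of Ifi27l2a was 0.146 and the call was lost, while the other 5 calls were kept. Ifi27, its neighbour on chromosome 12, stood at 8.90 to 13 CPM in sham microglia and at 15.99, 5.37, 17.8, 23.1 and 17.0 CPM in FPI microglia. Of the FPI libraries 4 lay above all sham libraries and replicate 2 lay below them all (log2 fold change 0.53, SE 0.31, edgeR adjusted p = 0.586).

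**Figure D2:**
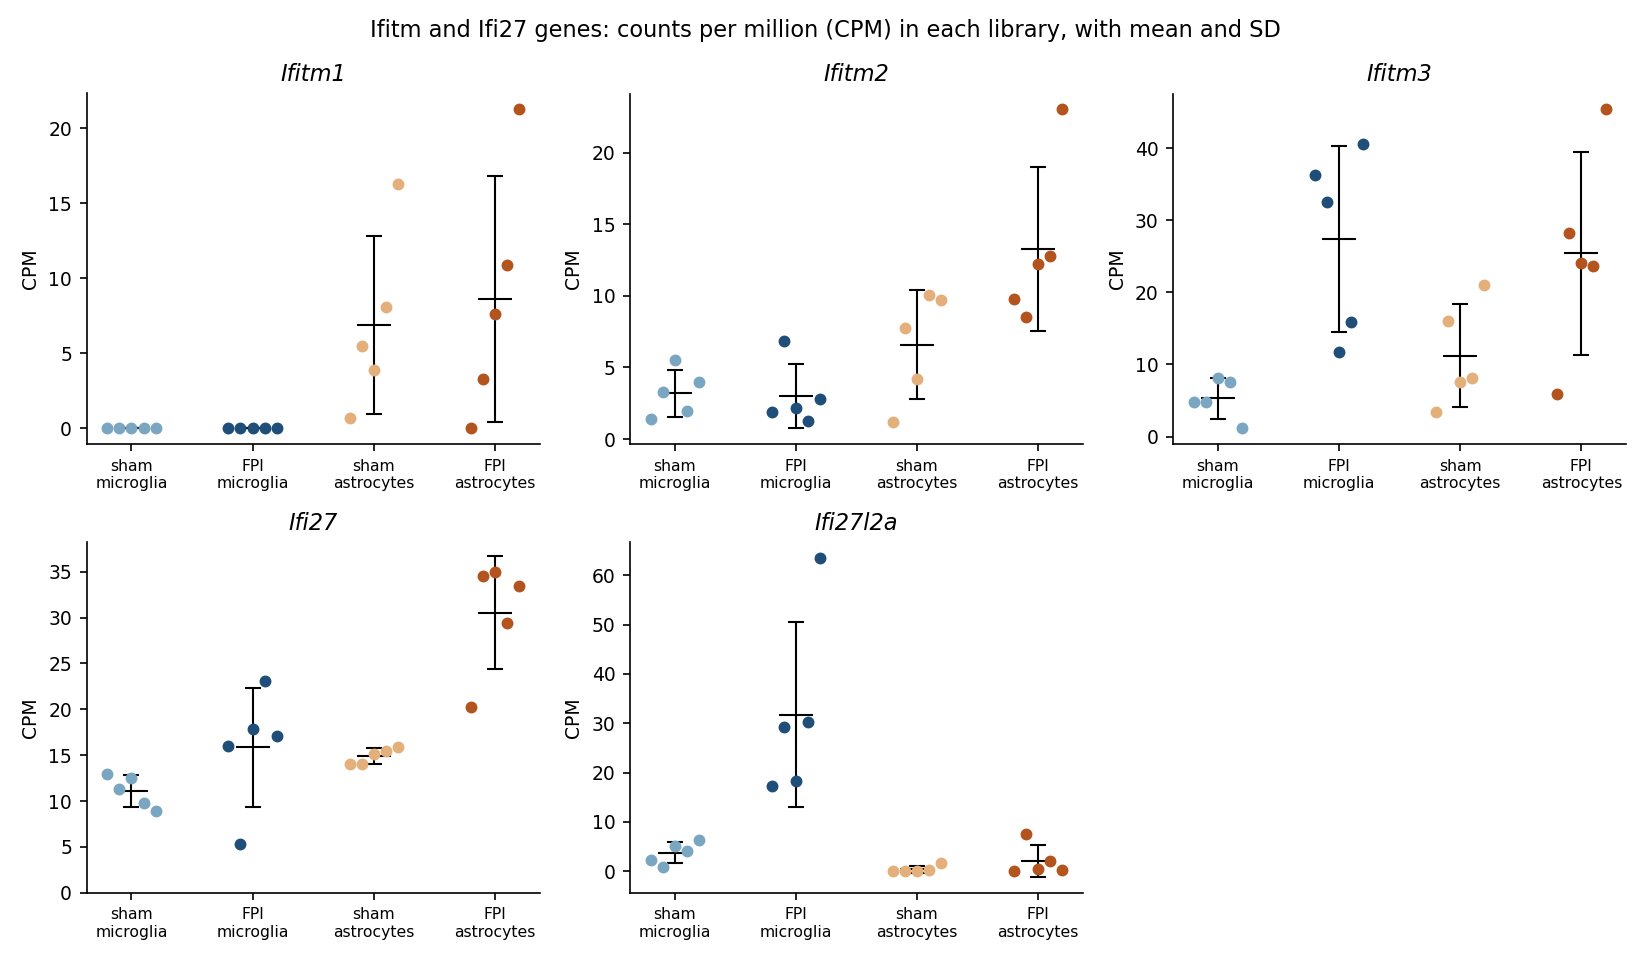
Level in CPM (vertical axis, linear) of Ifitm1, Ifitm2, Ifitm3, Ifi27 and Ifi27l2a in each of the 20 libraries by group; points are libraries in replicate order, and the black bars give mean and SD of 5 libraries. Ifitm1 is at 0 in all microglia, Ifitm3 and Ifi27l2a are higher in all FPI than in all sham microglia, and Ifi27 is higher in all FPI than in all sham astrocytes.

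The 6 calls in microglia held in each of the 10 fits that left out 1 library, and with FPI replicates 1 and 5 both left out. Microglia replicates 4 and 5 come from another series of library names than replicates 1 to 3. The same count of 6 was found in replicates 1 to 3 alone and in replicates 4 and 5 alone. Summed markers of monocytes, neutrophils and border macrophages were 331, 227, 338, 23.7 and 18.7 CPM in sham microglia replicates 1 to 5. In FPI microglia they were 206, 157, 120, 20.8 and 55.5 CPM, so that replicates 4 and 5 stood lower in both groups. Ly6c2 was at 0 in all microglia libraries. At least 3 of the 4 markers of T and NK cells were at 0 in each microglia group.

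In astrocytes, 0 of the 8 tested genes were called by edgeR, although all 8 had a positive log2 fold change, with a median of 1.04 against -0.0052 over all tested genes. Of all 13741 tested genes, 1 was called (0.00728%). None of the 8 was called with FPI replicates 2 and 5 left out, or with their counts summed into 1 library. At an unadjusted p below 0.05, 6 of the 8 genes were higher, beside 216 (1.57%) of all genes. In Ifit1, Ifit3 and Ifi27, every FPI library stood above every sham library, which was so for 62 (0.451%) of all genes. DESeq2, run as an alternative, called these same 3 genes higher, beside 39 (0.214%) of the 18251 genes to which it gave an adjusted p.

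Ifi27 ranked 3rd and Ifit1 9th by p among all genes tested in astrocytes. Ifi27 stood at 14.1, 14.02, 15.1, 15.5 and 15.9 CPM in sham astrocytes and at 20.3, 34.6, 35.0, 29.5 and 33.4 CPM in FPI astrocytes. The sham libraries were tight and FPI replicate 1 was the lowest of its group. The log2 fold change was 1.06 (SE 0.17), with an adjusted p of 0.151 by edgeR and 4.13e-04 by DESeq2. Without FPI replicate 1 the edgeR adjusted p was 0.0741 and Ifi27 was called.

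Ifit1 stood at 3.98, 5.49, 4.60, 3.49 and 5.18 CPM in sham astrocytes and at 17.3, 10.9, 11.96, 11.1 and 33.4 CPM in FPI astrocytes. FPI replicate 5 was the highest, and the groups did not overlap with or without it. The log2 fold change was 1.92 (SE 0.34), with an adjusted p of 0.161 by edgeR and 3.44e-04 by DESeq2, and it was 1.496 without FPI replicate 5. Ifit3 stood at 10.2, 20.99, 21.7, 12.01 and 14.9 CPM in sham astrocytes and at 35.6, 35.2, 30.4, 23.5 and 64.9 CPM in FPI astrocytes. Its log2 fold change was 1.27 (SE 0.30), with an adjusted p of 0.828 by edgeR and 0.0584 by DESeq2, and it was 0.96 without FPI replicate 5.

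The other Ifit genes overlapped between the astrocyte groups. Ifit2 ranged from 10.7 to 23.1 CPM in sham and from 19.8 to 35.1 CPM in FPI astrocytes (log2 fold change 0.85, SE 0.25), and Ifit3b from 7.29 to 17.4 CPM and from 8.68 to 35.8 CPM (log2 fold change 0.70, SE 0.35). Both had an edgeR adjusted p of 0.999. FPI replicate 5 was the highest library for all 4 Ifit genes.

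Ifitm3 ranged from 3.45 to 20.97 CPM in sham and from 5.87 to 45.4 CPM in FPI astrocytes (log2 fold change 1.195, SE 0.51, and 0.86 without FPI replicate 5). Ifitm2 ranged from 1.195 to 10.1 CPM and from 8.51 to 23.0 CPM (log2 fold change 1.03, SE 0.47). Ifitm1 stood at 0.664, 5.49, 3.87, 8.11 and 16.3 CPM in sham astrocytes and at 0, 3.26, 7.60, 10.9 and 21.2 CPM in FPI astrocytes, so that both groups ran from near the floor to a high value. Its log2 fold change of 0.33 (SE 0.92) was not called, and without FPI replicate 5 it was -0.34. The edgeR adjusted p was 0.999 for all 3 Ifitm genes. Ifi27l2a did not pass the filter in astrocytes, with 16 reads in all sham astrocytes together and 84 in all FPI astrocytes, 61 of them in FPI replicate 2.

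**Figure D3:**
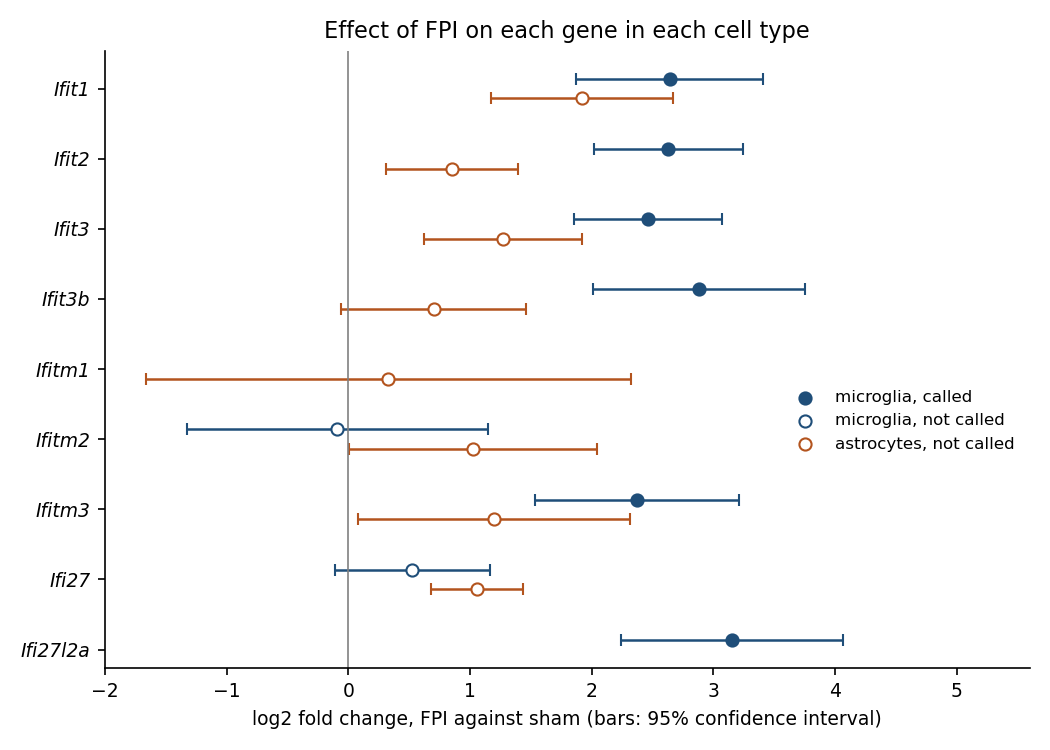
Log2 fold change of FPI against sham (horizontal axis) for each gene in microglia and astrocytes, with 95% confidence intervals from each cell type's own edgeR fit; filled points were called. The 6 filled points are all in microglia, between 2.37 and 3.15, and genes without a point did not pass the filter on low counts.

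Whether FPI acted differently in the cell types was tested as an interaction in 1 fit of all 20 libraries, in which 30 of 15077 genes (0.199%) passed an adjusted p of 0.1. None of the 8 genes with reads in both cell types passed in edgeR. At an unadjusted p below 0.05 the effect was larger in microglia for 3 of them, beside 3.77% of all genes. The log2 effect of FPI was larger in microglia by 1.78 for Ifit2 (SE 0.42, adjusted p = 0.144), by 2.19 for Ifit3b (SE 0.57, adjusted p = 0.193) and by 1.19 for Ifit3 (SE 0.45, adjusted p = 0.554). DESeq2 passed Ifit2 (adjusted p = 0.0229) and Ifit3b (adjusted p = 0.0368), beside 1.21% of the genes to which it gave an adjusted p. For Ifit1 the difference was 0.73, with a 95% confidence interval from -0.31 to 1.76, and for Ifi27 it was -0.52, from -1.29 to 0.25. A call in microglia and not in astrocytes therefore does not by itself show a different effect. Library names place 3 animals in both cell types, and the fit treats their libraries as independent.

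Without injury, 6 of the 9 genes differed between the cell types in that same fit, as did 60.9% of all genes, so the count itself is close to the background. Ifit1, Ifit3b, Ifitm1, Ifitm2 and Ifitm3 were called higher in astrocytes, beside 35.6% of all genes, and Ifi27l2a was called higher in microglia, beside 25.3%. Ifitm1 and Ifi27l2a entered this fit only through the cell type where they are high, so their calls restate where their reads lie. Ifit3b was 5.69-fold higher in sham astrocytes (12.9 ± 4.37 CPM, SD, n = 5) than in sham microglia (2.25 ± 1.10 CPM, edgeR adjusted p = 2.7e-05). Ifi27l2a stood at 3.74 ± 2.11 CPM in sham microglia and at 0.390 ± 0.713 CPM in sham astrocytes, a log2 difference of 3.29 (edgeR adjusted p = 0.00986). The astrocyte mean lies within the range of the floor and rests on 16 reads, 13 of them in replicate 5 and none in replicates 1 to 3. Without sham astrocyte replicate 5 the log2 difference was 5.36. The call was kept in each of the 20 fits that left out 1 library, with the same limit from the filter.

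Ifitm1 averaged 6.88 CPM in sham astrocytes against 0 reads in microglia, at least 12.1-fold higher when set against 3 counts in the shallowest microglia library, and in FPI astrocytes it was at least 15.1-fold higher by the same floor. The edgeR adjusted p was 6.45e-04 in sham and 5.46e-04 in FPI libraries. With 0 reads in microglia, Ifitm1 passed the filter of that fit only through the astrocyte libraries. These p-values therefore restate where its reads lie and add no support. Replicate 5 weighed most in both groups, and without it the bounds were 7.97-fold and 9.58-fold.

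The differences in Ifit1 (1.71-fold, edgeR adjusted p = 0.0715), Ifitm2 (2.05-fold, 0.0924) and Ifitm3 (2.09-fold, 0.0858) were close to the threshold. Leaving out 1 library ended these calls in 7, 12 and 9 of 20 fits, respectively, and without sham microglia replicate 1 or 2, or sham astrocyte replicate 2 or 5, only 3 of the 6 calls were left. Ifit2, Ifit3 and Ifi27 did not pass, with log2 differences (microglia minus astrocytes) of 0.13, -0.38 and -0.42.

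After FPI the cell types were compared in the same fit. Ifit2 was 3.76-fold higher in FPI microglia than in FPI astrocytes (edgeR adjusted p = 1.3e-05) and Ifit3 was 1.75-fold higher (0.0308). Ifitm2 was 4.40-fold higher in astrocytes (0.00162), and Ifi27 1.93-fold higher in astrocytes (0.00352). Ifit1, Ifit3b and Ifitm3 showed no difference that could be detected, with 95% confidence intervals of the log2 difference from -0.75 to 0.66, from -1.12 to 0.48 and from -0.93 to 1.16. Ifi27l2a was higher in microglia by 3.91 on the log2 scale (edgeR adjusted p = 8.68e-04). Because Ifi27l2a entered this fit only through the microglia libraries, this p-value restates where its reads lie. Of its 84 reads in FPI astrocytes, 61 are in replicate 2, and without that library the FPI astrocyte mean was 0.701 CPM and the log2 difference 5.47.

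To compare genes with each other, levels were divided by the length of their merged exons. In sham microglia the means ran from 8.08 CPM per kilobase for Ifi27l2a, 7.82 for Ifitm3 and 7.57 for Ifi27 down to 1.12 for Ifit3b, 1.00 for Ifit1 and 0 for Ifitm1. The order of the highest means differed from library to library. Ifi27l2a stood above Ifitm3 in 1 of 5 sham microglia libraries, and Ifitm3 above Ifi27 in 2 of 5. After FPI the means ran from 68.6 for Ifi27l2a, 40.4 for Ifitm3, 38.0 for Ifit3 and 25.9 for Ifit2 down to 6.16 for Ifit1, 4.56 for Ifitm2 and 0 for Ifitm1. Ifi27l2a stood above Ifitm3 in 4 of 5 FPI microglia libraries. Ifit3 stood above Ifit2 in 5 of 5.

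In sham astrocytes Ifitm3 was first (16.6 CPM per kilobase), before Ifi27 (10.2), Ifitm2 (10.05) and Ifit3 (9.15), and Ifi27l2a was last (0.843). Ifitm3 stood above Ifi27 in 4 of 5 of these libraries, Ifi27 above Ifitm2 in 2 of 5 and Ifitm2 above Ifit3 in 2 of 5. In FPI astrocytes Ifitm3 was again first (37.5), followed by Ifit3 (21.7), Ifi27 (20.8) and Ifitm2 (20.2), which did not separate from one another in the order of single libraries. With 5 libraries, the smallest p that an exact paired test of neighbours allows is 0.0625. The lengths assume that all exons are used: with the longest transcript, Ifi27 in sham microglia was 11.4 CPM per kilobase and came first.

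Ifit3 and Ifit3b are near copies, with 98.0% identity over 1697 aligned transcript bases, and 18.5% of the 150-base windows of Ifit3 also occur in Ifit3b. How reads that match both were counted is not stated, so the levels of the pair are uncertain, while Ifit2, Ifitm1, Ifitm3, Ifi27 and Ifi27l2a share no such window with another gene. Ifitm2 shares 23.5% of its windows with Gm45717, and Ifit1 shares 1.24% with Ifit1bl2. Of the per-kilobase level of the pair, Ifit3b made up 14.6, 15.1, 27.3, 8.23 and 7.53% in sham microglia and 15.5 to 20.9% in FPI microglia. In astrocytes it made up 59.7, 41.0, 34.8, 34.6 and 36.3% in sham libraries and 24.4 to 34.5% in FPI libraries.

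The Ifit3b share was lower in microglia than in astrocytes by 26.7 percentage points in sham (means 14.6% and 41.3%) and by 14 points in FPI libraries (17.4% and 31.4%). Both differences had the smallest p an exact two-sided permutation test allows at 5 against 5 (p = 0.00794, adjusted over 4 comparisons 0.0106). Within astrocytes, the share was 9.87 points higher in sham than in FPI libraries (exact permutation p = 0.00794, adjusted 0.0106), and within microglia the difference of 2.85 points did not pass (exact permutation p = 0.444). The difference within astrocytes fell to 5.25 points without sham replicate 1 (exact permutation p = 0.0159, the smallest at 4 against 5). That within microglia rose to 6.03 points and passed without sham replicate 3 (exact permutation p = 0.0159). The permutations treat the libraries as independent, although 3 animals gave libraries of both cell types and FPI astrocyte replicates 2 and 5 carry 1 animal number. With the astrocyte libraries of those 3 animals left out, the share was lower in microglia by 30.6 points in sham (exact permutation p = 0.0357, the smallest at 5 against 3) and by 13.7 points in FPI libraries (exact permutation p = 0.0159, the smallest at 5 against 4). These comparisons were chosen after the values had been seen.

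**Figure D4:**
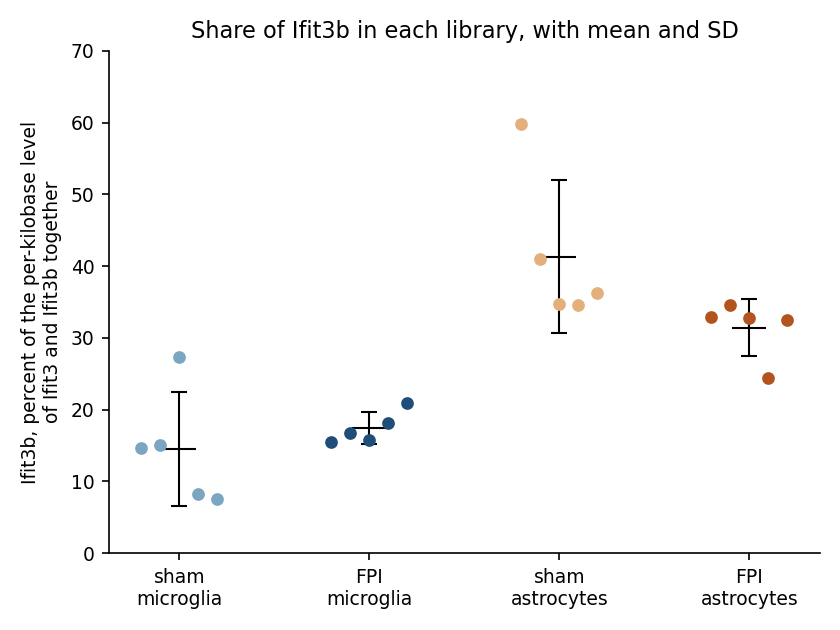
Share of Ifit3b in the summed per-kilobase level of Ifit3 and Ifit3b (vertical axis, percent) in each library by group; points are libraries in replicate order, and the black bars give mean and SD of 5 libraries. Microglia lie between 7.53% and 27.3% and astrocytes between 24.4% and 59.7%.

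The Ifitm genes in astrocytes were set beside markers of other cells. The 5 pericyte markers (Pdgfrb, Kcnj8, Vtn, Rgs5 and Abcc9), genes of the mural cells of small vessels, were all detected in both astrocyte groups. Their sum was 1161, 3130, 2211, 3384 and 6314 CPM in sham and 279, 2769, 2942, 4830 and 8489 CPM in FPI astrocytes, against 13.5 to 53.3 CPM in microglia. The 6 endothelial markers summed to 23.2 to 455 CPM in sham and 95.6 to 380 CPM in FPI astrocytes, and 6 oligodendrocyte lineage markers to 1380 to 14795 CPM in sham and 3391 to 9607 CPM in FPI astrocytes. None of the markers in these lists was at 0 in either astrocyte group.

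Ifitm1 followed the pericyte markers closely across the 10 astrocyte libraries. The library with the lowest sum, FPI replicate 1, had no Ifitm1 read, and the library with the highest, FPI replicate 5, had the most Ifitm1. On log2 scales Pearson's r was 0.957 (permutation p = 1e-05, the smallest the 100000 draws can give; adjusted over the 9 genes 9e-05), and Spearman's rho was 0.976 (permutation p = 2e-05, adjusted 1.8e-04). Without these 2 libraries, the farthest from the median of the sum, r was 0.965.

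For Ifitm3 Pearson's r was 0.739 (permutation p = 0.00946, adjusted 0.0426) and Spearman's rho 0.661 (permutation p = 0.0430, adjusted 0.179), and r was 0.726 without those 2 libraries. Ifitm2 gave an r of 0.450 (permutation p = 0.182, adjusted 0.545) and a rho of 0.624 (permutation p = 0.0596, adjusted 0.179), and its r was 0.853 without those 2 libraries. For the 4 Ifit genes, Ifi27 and Ifi27l2a, r lay between -0.130 and 0.338, with adjusted permutation p from 0.674 to 0.982. Each condition alone has 5 libraries, too few for a correlation of its own, and the relation was noticed in these data before it was tested. The permutations treat all astrocyte libraries as independent and mix sham with FPI, although FPI replicates 2 and 5 carry the same animal number. No such correlation was run with the endothelial or oligodendrocyte lineage markers. Whether the relation is particular to pericyte markers was therefore not tested, nor was the part of pericyte RNA in the Ifitm levels of astrocytes.

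**Figure D5:**
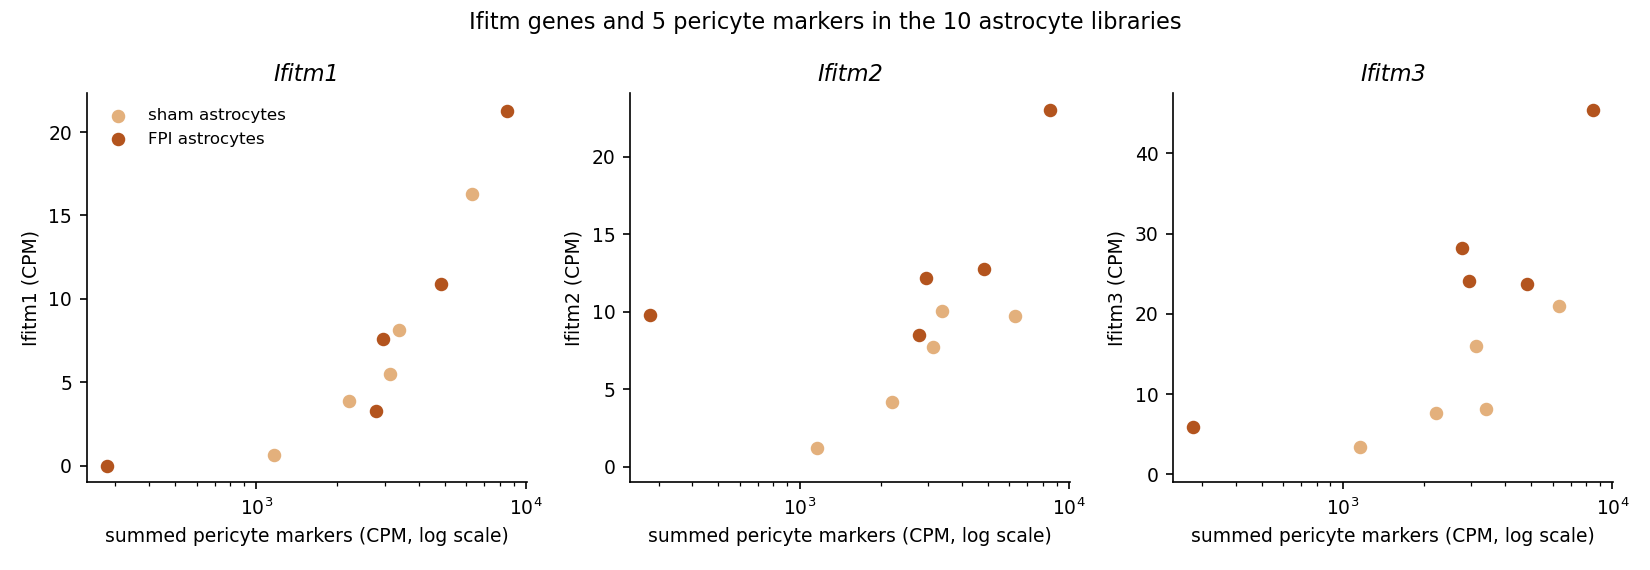
Level in CPM (vertical axes, linear) of Ifitm1, Ifitm2 and Ifitm3 against the summed level of 5 pericyte markers (horizontal axes, CPM, log scale) in the 10 astrocyte libraries; each point is a library. Ifitm1 runs from 0 CPM at the lowest marker sum (279 CPM) to 21.2 CPM at the highest (8489 CPM).

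Microglial RNA in the astrocyte libraries can be set beside the members directly. In FPI astrocytes, Ifit1 stood at 103.5% of its level in FPI microglia, Ifit3 at 57.2% and Ifit2 at 26.6%, against 0.447% for the summed microglial markers. Ifi27l2a in FPI astrocytes stood at 6.58% of its level in FPI microglia. Summed microglial markers were 29.7 to 59.8 CPM in sham and 39.5 to 134 CPM in FPI astrocytes.

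Of the factors that carry the interferon signal, Stat2 and Irf7 rose in FPI microglia. The log2 fold changes were 1.00 for Stat2 (SE 0.14, edgeR adjusted p = 4.49e-04) and 2.85 for Irf7 (SE 0.34, adjusted p = 6e-05). Irf9, the partner of STAT2, had a log2 fold change of 0.45 (SE 0.14, edgeR adjusted p = 0.150) and was not called. In astrocytes the log2 fold changes were 0.60 for Stat2, 2.15 for Irf7 and 0.95 for Irf9, none of which was called by edgeR (adjusted p = 0.999).

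Of the 18 genes of the interferon path, 17 were tested in microglia, 4 were called higher, beside 2.13% of all tested genes, and 0 lower, with a median log2 fold change of 0.16. Stat2 and Irf7 were among the 4. In astrocytes 17 were tested and 0 called, with 6 higher at an unadjusted p below 0.05, beside 1.57% of all tested genes. Ifnb1, the interferon beta gene, did not pass the filter in either cell type. Of 31 other antiviral effector genes, 23 were called higher and 0 lower in microglia, against the same 2.13% of all genes, with a median log2 fold change of 1.28. In astrocytes 0 of 24 tested were called, all 24 had a positive log2 fold change (median 0.86), and 12 were higher at an unadjusted p below 0.05, against the same 1.57%. These lists were chosen with earlier results of these data known.

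Apart from Ifitm10 in microglia, other genes of the same families were scarce. Of 8 looked for, 7 were in the table, and Ifitm10 in microglia was the single one that passed the filter, at 117 CPM in sham and 99.5 CPM in FPI microglia (log2 fold change -0.23, SE 0.20, edgeR adjusted p = 0.773). Ifit1bl1, inside the Ifit cluster, had 0 to 8 reads in sham microglia and 8, 24, 0, 14 and 29 reads in FPI microglia. Ifitm7 had 0 reads in all sham microglia and 27 in all FPI microglia, 22 of them in replicate 1. In astrocytes Ifitm7 had 7 reads in all sham libraries and 57 in all FPI libraries, 37 of them in replicate 1.

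Over the 10 microglia libraries, the genes whose log2 CPM followed the mean of the 4 Ifit genes most closely were Sdc3 (Pearson's r = 0.986), Oasl2 (0.983), Ifi204 (0.981), Ctsb (0.981) and Lgals3bp (0.980), of 12135 genes compared. For the mean of Ifitm2 and Ifitm3 they were Smc2 (0.968), Anxa5 (0.946), Folr2 (0.937), Mki67 (0.929) and Adam9 (0.927). Over the 10 astrocyte libraries, they were Mmp2 (0.951), Cpxm1 (0.935), Oasl2 (0.924), Tnr (0.915) and Socs3 (0.908) for the Ifit genes. For Ifitm2 and Ifitm3 they were H2-T23 (0.977), Slco2b1 (0.972), Ccdc3 (0.970), 9930111J21Rik1 (0.969) and Cdc42ep3 (0.969). Oasl2 was the gene that both Ifit lists shared. Such correlations run over both conditions, so any gene that moves with FPI takes part in them. In microglia, the mean of Ifitm2 and Ifitm3 joins Ifitm3, which was called, with Ifitm2, which was not.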

How the data were processed

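Counts of reads per gene were used as the authors deposited them, whole numbers without normalization. Per the submitters' processing notes, reads from stranded total RNA libraries were demultiplexed with bcl2fastq, aligned to mm10 (GRCm38.p6) with HISAT2 2.1.0 and counted with featureCounts. The strand setting and the treatment of reads with several matches are not given in the sources used here. Each of the 20 sample files was equal to its column of the combined table, and no pair of libraries held identical counts. Groups followed the titles.

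Identifiers were matched to GENCODE M21 (37607 of 39017, with 99.81% of counts). Tests were run in edgeR 4.0.16 (R 4.3.3) with filterByExpr by group, TMM factors and the quasi-likelihood test. The fitting script was tested on simulated data. CPM were scaled with TMM factors over all 20 libraries. The SE of a log2 fold change is its size over the root of the F statistic. Permutation tests used scipy 1.17.1 and numpy 2.4.6 in Python 3.11.15, tables were handled with pandas 2.3.3, figures were drawn with matplotlib 3.10.9, and transcripts were aligned with biopython 1.88. The correlation with pericyte markers used a pseudocount of 1 CPM and 100000 draws.

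The 9 genes are named in every group, and of the interferon list values are given for Stat2, Irf9 and Irf7, and 1 further gene of the rule is not reported here. The 5 genes most like each family were taken by Pearson's r. The members and lists were chosen with earlier results of these data known. Alternatives were DESeq2 1.42.0, RLE factors, other filters and thresholds, a replicate block, terms for groups of replicates, 1 fit of all libraries, and leaving out libraries. The replicate numbers were not taken as pairs, because same-numbered libraries did not deviate together in every pair. Counting intervals and floors cover counting error only.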

Additional observations from a re-analysis of the deposited data

Results flagged for a closer look

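Of 34 groups of 5 libraries, 5 held a library whose gap to its nearest neighbour was over 0.71 of the group's range. For independent, normally distributed values chance flags about 1 group in 20. Levels that rest on few reads are not such values, and the groups share libraries, so that rate may not hold here. Ifit1 in FPI astrocyte replicate 5 stood at 33.4 CPM. Ifitm2 in FPI microglia replicate 2 stood at 6.86 CPM. Ifi27l2a stood apart in 3 groups: FPI microglia replicate 5 at 63.5 CPM, sham astrocyte replicate 5 at 1.64 CPM and FPI astrocyte replicate 2 at 7.64 CPM. The last of these carries the same animal number in its library name as FPI astrocyte replicate 5, in which Ifi27l2a stood at 0.320 CPM. Of the 8 genes tested for an effect of FPI that differed between the cell types, 0 passed the adjusted p threshold in edgeR, 3 had an unadjusted p below 0.05, and DESeq2 passed 2.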

How the results depend on the processing

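The count of 6 genes called higher in FPI microglia ranged from 4 to 6 under 11 other settings and stayed at 6 in every fit that left out 1 library. It was 4 of 5 tested with at least 10 counts in every library and 5 in 1 fit of all 20 libraries. In astrocytes 0 genes were called, but DESeq2 called 3, the fit of every gene with at least 1 count called 1 and the fit of all 20 libraries called 1 (Ifit1, adjusted p = 0.0197), with a range of 0 to 1 when 1 library was left out. The replicate block gave 6 calls in microglia, 0 in astrocytes, 0 for the interaction and 5 for the sham cell types. Same-numbered microglia libraries correlated at -0.066 to 0.092 and astrocyte libraries at 0.245 to 0.452 in 4 of 5 pairs and at -0.00927 in the other, and 2 of 5 and 3 of 5 sham libraries correlated best with their own number. Over all genes the block gave 255 calls in microglia, against 285, and 11 in astrocytes, against 1. DESeq2 passed 2 interactions, and leaving out 1 library gave 0 in each fit. Between the sham cell types, 1 gene was called with at least 10 counts in every library (4 tested) and 3 without the astrocyte libraries of the animals with both, and 3 to 6 with 1 library left out.

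Some values that were never called changed sign. Ifitm2 in microglia was 0.081 in replicates 1 to 3 alone, 0.075 without FPI replicates 1 and 5 (chosen after seeing the data) and -0.64 to 0.20 with 1 library left out. Ifitm1 in astrocytes was -0.16 without FPI replicates 2 and 5 (chosen after seeing the data) and -0.34 to 0.93 with 1 library left out. The interaction of Ifi27l2a was -4.30 without the astrocyte libraries of the animals with both and -1.41 to 2.16 with 1 library left out. Ifit2 between the sham cell types was -0.0011 with at least 10 counts in every library. Between the FPI cell types, settings chosen after seeing the data gave -0.25 to 0.38 for Ifit1, -0.60 to 0.012 for Ifit3b and -0.15 to 0.47 for Ifitm3 with 1 library left out. The Ifi27l2a difference between the sham cell types was 7.99 without the astrocyte libraries of the animals with both. The causes were not tested.

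All genes called in astrocytes numbered 1 in the reported fit, 39 with DESeq2, 53 in 1 fit of all libraries, 9 with every gene of at least 1 count, 6 with a term for replicates 4 and 5, 1 with RLE factors, and 0 with at least 10 counts in every library, with FPI replicates 2 and 5 summed or left out, and at the stricter thresholds. In microglia they numbered 285, and 99 in replicates 4 and 5 alone, 121 in 1 fit of all libraries and 108 at the stricter thresholds. For the interaction they numbered 30, and 190 with DESeq2, 69 without the astrocyte libraries of the 3 animals found in both cell types and 8 without their microglia libraries, and 1 with at least 10 counts. Between the sham cell types they numbered 9175, and 4551 with at least 10 counts. RLE factors shifted the median of the cell type difference by -0.0845. With 3 counts as the floor, Ifitm1 in microglia, Ifi27l2a in astrocytes and the scarce family genes are limited by depth.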
